A study of Zea mays with 3 samples.

Results

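The regions described here are the stretches of the maize genome in which anti-CENH3 ChIP-seq of the line F3-600 returned few reads, while the inbred line B73 and the line F3-152 did not. Each read was assigned by its midpoint to a 10-kb bin of chromosomes 1 to 10, and each library was divided by the median of its non-empty bins, so a level of 1 is the typical bin of that library. A bin was a member where B73 and F3-152 were at 0.5 or more and F3-600 was below 0.25. By this rule 4155 of 210639 bins were members, which add up to 41.55 Mb of B73 RefGen_v4, the build to which the reads were aligned. B73 and F3-152 were both at 0.5 or more in 136233 bins, called eligible bins here, and the members were 3.05% of them.

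Each line gave 1 library from young leaves, precipitated with a rabbit antiserum against maize CENH3 after digestion of the nuclei with micrococcal nuclease. B73 is labelled the control, and the F3 lines carry no other genotype label than their names. The title of the series refers to irradiated maize. The F3-600 library held 14454963 aligned reads, B73 held 7716211 and F3-152 held 21026602, and the medians per non-empty bin were 64, 32 and 90 reads. With 1 library per line there is no test between lines, and the intervals given cover counting error only. Each library was read on its own sequencer, 3 in all by the read names, and differences of line and of run cannot be told apart.

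CENH3 is the variant of histone H3 that replaces H3 in part of the nucleosomes of active centromeres and marks the place where the kinetochore forms. Maize centromeres hold tandem CentC repeats and centromeric retrotransposons (CRMs), much of which cannot be placed by a short read. Within a centromere, the level of a bin follows CENH3 nucleosomes as well as the recovery and placement of its DNA. On the chromosome arms it follows the background of the precipitation, that is, how much DNA of that stretch was recovered and could be placed at a single position. A low bin on an arm is therefore no measure of CENH3. Fewer copies of a stretch, poorer placement of its reads and lower recovery cannot be told apart without input DNA, which was not analysed here. For a low bin inside a centromere, these and less CENH3 cannot be told apart either.

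The rule chose the members by their levels, which are given as a description. In F3-600 the members ran from 0 to 15 reads with a median of 9, a level of 0.14. The middle of these bins, from the lower to the upper quartile, held 6 to 12 reads. No read was left in 99 members, or 2.38%. Taken as 3 reads, the upper limit of a count of 0 is a level of 0.0469. Most reads come in pairs, and the exact interval allows 3.69 fragments, so this limit is too low. All members together had a median level of 1.03 in B73 and 0.84 in F3-152. In the other 132078 eligible bins the medians were 1.16 in B73, 1.41 in F3-152 and 1.39 in F3-600, so the members were also somewhat lower in F3-152 than the rest.

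The limit of 0.25 does not fall in a gap of the distribution. Of the eligible bins, 258 had 15 reads in F3-600, just inside the limit, and 374 had 16, just outside. Between levels of 0.25 and 0.5 lay 6787 further eligible bins. At the limit in B73, 111 bins with low F3-600 and F3-152 at 0.5 or more held 16 reads, and 52 held 15. At the limit in F3-152, 67 bins with low F3-600 and B73 at 0.5 or more held 45 reads, and 95 held 44. The members are thus the low end of a continuous range.

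Most of what was low in F3-600 was low in F3-152 too. Of the 178159 bins at 0.5 or more in B73, 25787 were below 0.25 in F3-600 (14.5%). The members made up 16.1% of these. The 17283 bins below 0.25 in both F3 lines made up 67.0% of them and 9.7% of the bins at 0.5 or more in B73, and 4349 bins had F3-152 between the limits. The mirror class, low in F3-152 alone, held 3330 of 134663 eligible bins (2.47%).

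The members were unevenly spread over the chromosomes. Chromosome 5 had 927, against 452 if the members fell at random on the eligible bins, which is 2.05 times that number. Chromosome 1 had 885 against 604, chromosome 7 had 481 against 372 and chromosome 2 had 578 against 460. These 4 chromosomes stood 1.26 to 2.05 times above the number for a random scatter. Chromosomes 9 and 3 lay close to it, with 323 against 276 and 439 against 483.

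The other chromosomes had fewer. Chromosome 6 held 161 members against 318 and chromosome 4 held 259 against 546. Chromosome 8 held 44 against 352, and chromosome 10 held 58 against 293. The share of eligible bins that were members thus ran from 0.381% on chromosome 8 to 6.26% on chromosome 5. Low levels in F3-600 were not missing from chromosomes 8 and 10, where 1441 and 1605 bins were low in both lines. These were 9.81% and 12.5% of the bins at 0.5 or more in B73, against 9.7% over all chromosomes. Members were 2.96% and 3.49% of the bins depleted in F3-600 alone or in both lines there, and 37.2% on chromosome 5. The F3-152 mirror class had a different order, with most on chromosome 6, where 676 bins stood against 276 for a random scatter. It was also below the random scatter on chromosomes 4 (183 against 435), 8 (173 against 288) and 10 (59 against 238). Low numbers on these chromosomes were thus not particular to the members.

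**Figure D1:**
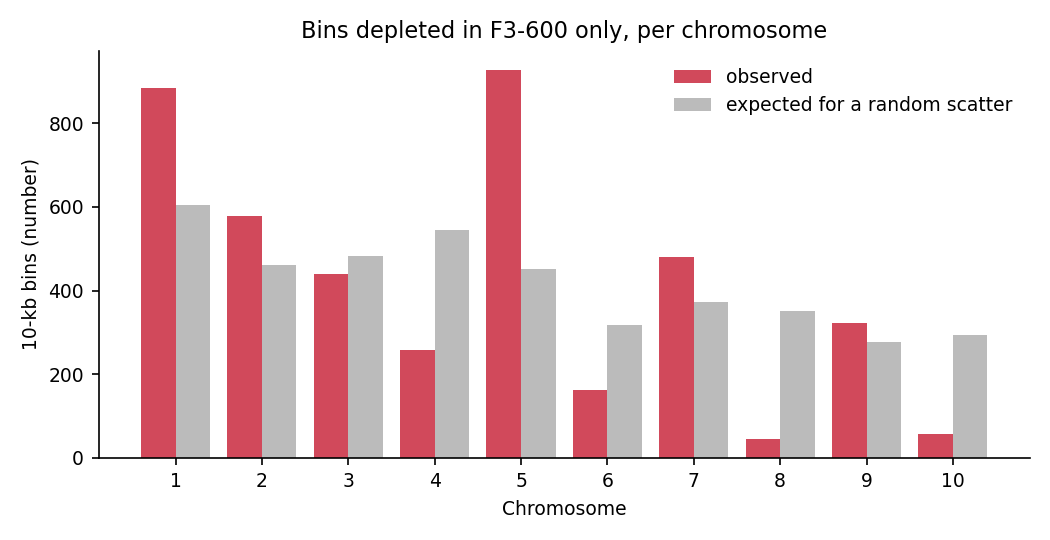
Number of 10-kb bins depleted in F3-600 only on each of the 10 chromosomes (red) beside the number expected if the 4155 bins fell at random on the eligible bins (grey). Chromosome 5 had 927 against 452, and chromosome 8 had 44 against 352.

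Members lay next to each other. Of the 4155, 2269 touched another member, or 54.6%, where a random scatter over the eligible bins gives 4.76%. Within 50 kb of another member lay 80.6%, against 20.3% for a random scatter, and within 100 kb 85.8%, against 35.6%. The members formed 2687 unbroken runs, where a random scatter gives 4055. Of these, 1886 were single bins.

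Runs of at least 3 bins numbered 324, against 2.41 for a random scatter, and runs of at least 4 numbered 154, against 0.0607. At least 5 bins long were 83 runs with 521 members, and 10 runs had 9 or 10 bins. The longest were 3 runs of 10 bins, or 100 kb. The share of members with a neighbour was 45.2% or more on every chromosome except chromosome 10 (24.1%) and chromosome 8 (4.55%), on neither of which a run was longer than 2 bins. The classes used for comparison also lay in runs: 50.5% of the bins low in F3-152 alone and 57.6% of those low in both lines touched another bin of their class, against 3.85% and 16.4% for a random scatter. Clustering as such is therefore no feature of F3-600 alone.

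**Figure D2:**
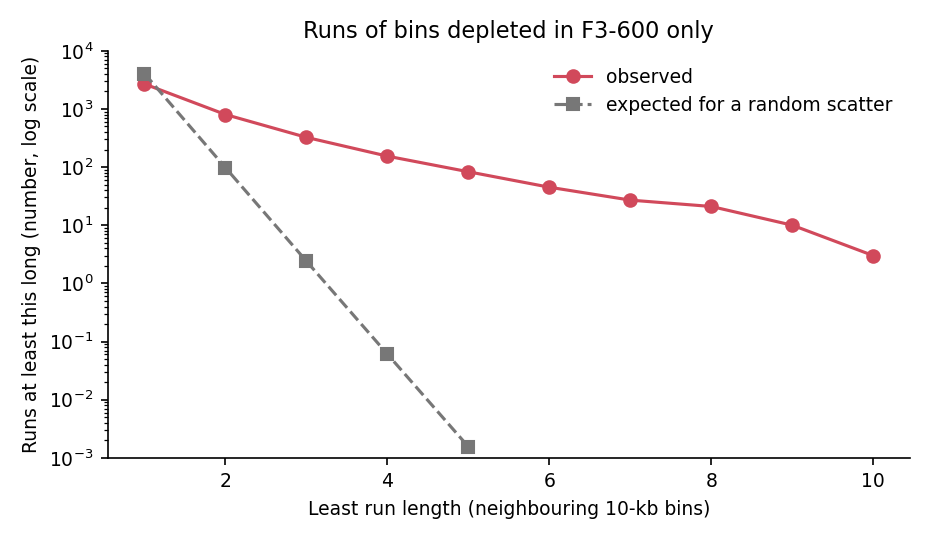
Number of runs (log scale) with at least the given number of neighbouring 10-kb bins depleted in F3-600 only, observed (red) and expected for a random scatter over the eligible bins (grey). Observed runs of at least 3 bins numbered 324 against 2.41, and 3 runs reached 10 bins.

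The longest runs lay on chromosomes 5, 7 and 3. On chromosome 5, from 128570001 to 128670000, the 10 bins of B73 held from 16 to 75 reads with a median of 34. In F3-152 they held from 48 to 113 with a median of 82. In F3-600 they held from 0 to 14 with a median of 5, and 3 of the 10 bins were empty. F3-600 was below both other libraries in each bin, which the rule requires. The run kept 27 fragments in F3-600 (95% exact Poisson interval 17.8 to 39.3), 7.94% of the 340 that 10 typical bins hold. The bins on either side had 20 and 44 reads in F3-600.

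On chromosome 7, from 91270001 to 91370000, B73 held from 22 to 50 reads per bin with a median of 38. F3-152 held from 69 to 102 with a median of 78. F3-600 held from 2 to 14 with a median of 9. No bin of this run was empty in F3-600, and its 45 fragments (interval 32.8 to 60.2) were 13.2% of the number in typical bins.

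On chromosome 3, from 51630001 to 51730000, B73 held from 26 to 58 reads per bin with a median of 33. F3-152 held from 55 to 175 with a median of 120, above the 90 reads of its typical bin, though its lowest bins lay below. As a level this median was 1.33, against 1.39 over all eligible bins. F3-600 held from 2 to 15 with a median of 8, from 44 fragments (interval 31.97 to 59.1). A shorter run on the same chromosome, from 47960001 to 48050000, was the lowest of the 10 longest runs in F3-600, with a median of 2 reads per bin. It had 31 in B73 and 139 in F3-152, the highest median of F3-152 among these 10 runs.

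The other runs of 9 bins lay on chromosomes 1 and 9. On chromosome 1 they started at 79200001, 106480001, 107230001 and 109250001, with medians of 4 to 10 reads per bin in F3-600 and 37 to 49 in B73. The run at 106480001 had 26 fragments left (interval 16.98 to 38.1). On chromosome 9 they started at 39270001 and at 52850001. The latter lies 0.835 Mb before the B73 centromere and kept the most of the named runs, 54 fragments (interval 40.6 to 70.5) or 17.6% of the number in typical bins. On the remaining chromosomes with a run of at least 3 bins, the longest were 8 bins on chromosome 2 from 70950001, 6 on chromosome 4 from 109490001 and 5 on chromosome 6 from 106400001.

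The ends of the runs were often set by the rule and not by a return to the typical level. Of the 648 ends of the 324 runs of at least 3 bins, 113 (17.4%) met a bin still below 0.25 in F3-600 but too low in B73 to be eligible. A further 40 ends met such a bin with F3-152 between 0.25 and 0.5, and 13 met one low in both lines. In 243 ends F3-600 was between 0.25 and 0.5, and in 239 (36.9%) it was at 0.5 or more. Around the 83 runs of at least 5 bins, the median of F3-600 was 0.375 in the first bin outside, 0.258 at 50 kb and 0.594 at 100 kb, against 1.36 over all eligible bins. In B73 it was between 0.98 and 1.19 and in F3-152 between 0.98 and 1.18 over the same distances. Over all eligible bins the medians of these libraries were 1.16 and 1.39. Low levels of F3-600 thus went on well beyond the runs themselves.

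Joined across gaps of up to 50 kb, the longest stretch was 1280 kb on chromosome 7, from 90090001 to 91370000. It held 128 bins, of which 112 were eligible and 81 were members. In F3-600, 96 of the 128 were below 0.25 and 10 were at 0.5 or more. The median over all its bins was 0.14 in F3-600, 1.06 in B73 and 0.98 in F3-152. F3-600 was therefore low through most of the 1280 kb, with the other libraries near a level of 1. Over all eligible bins the medians were 1.36 in F3-600, 1.16 in B73 and 1.39 in F3-152, so F3-152 was also lower in this stretch. The next stretch was 620 kb on chromosome 5, from 116990001 to 117610000, where 50 of 62 bins were below 0.25 in F3-600 and 2 were at 0.5 or more.

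On a coarser scale, most of the genome was free of members. Of 2111 windows of 1 Mb, 1312 had none, against 333 for a random scatter. At the other end 133 windows had 10 or more, against 0.221, and these held 2231 members, or 53.7% of the total. The fullest window, on chromosome 7 from 90000001 to 91000000, had 55 members among 87 eligible bins. The next, on chromosome 5 from 117000001 to 118000000, had 52 among 85.

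Dense and empty windows came in long series. On chromosome 5, 11 windows in a row from 88000001 to 99000000 had at least 5 members each and 118 together, against 26.7 for a random scatter. On chromosome 2, 10 in a row from 44000001 to 54000000 had 176, against 23.0. Without any member were 34 windows in a row on chromosome 1 from 115000001 to 149000000, with 2947 eligible bins. The same held for 30 windows on chromosome 3 from 138000001 and 29 from 67000001, for 23 on chromosome 8 from 128000001, for 23 on chromosome 10 from 37000001 and for 21 on chromosome 6 from 37000001. Other depleted bins were also few in the series of chromosome 1, with 22 low in both lines and 1 in F3-152 alone. In that of chromosome 3 from 67000001 they numbered 13 and 5. The other series held 47 to 191 bins low in both lines and 3 to 45 low in F3-152 alone. CENH3 domains of F3-600 lay in 3 of these series, on chromosome 3 from 79910001 and from 85840001, on chromosome 10 from 51530001 and on chromosome 6 from 48960001. The F3-152 domain of chromosome 1, from 140710001, lay in such a series too.

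The share of members among the depleted bins differed widely between windows. Over the whole genome, the members were 19.4% of the bins of either kind. Among the 967 windows with at least 10 such bins, the share was below 10% in 595 windows, of which 418 held no member, and 80% or more in 72 windows. If all windows had the share of the whole genome, 164 and 0.00671 windows would lie in these ranges. These numbers take bins as independent, whereas bins of both classes lay in runs. The comparison therefore cannot show that the classes avoid each other. The 72 windows held 1459 members, 35.1% of the total. The numbers of members and of bins low in both lines per window had a Pearson correlation of -0.06 over 2094 windows with at least 20 eligible bins, a description of windows that share the B73 library and are not independent.

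**Figure D3:**
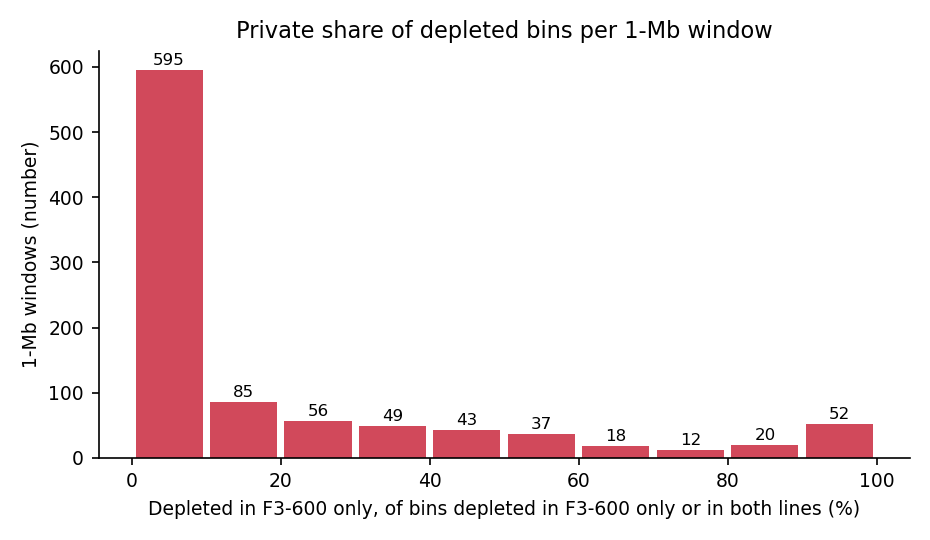
Number of 1-Mb windows by the share (in %) of bins depleted in F3-600 only among those depleted in F3-600 only or in both F3 lines, for the 967 windows with at least 10 such bins. The lowest class holds 595 windows, and 72 windows are at 80% or more.

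The change from one kind of window to the next could be abrupt. On chromosome 7, the window from 89000001 to 90000000 had 0 members, 0 bins low in both lines and 8 low in F3-152 alone, beside 74 eligible bins. From 90000001 to 92000000 there were 99 members and 3 bins low in both lines. From 92000001 to 94000000 there was 1 member and 45 bins were low in both. Neighbouring megabases thus differed in whether the low bins of F3-600 were its own or shared with F3-152. This place was chosen after its values were seen.

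The quality of the reads, which the rule did not use, was low in the members, as it was in depleted bins of other classes. The mapping quality, a score that BWA gives to the placement of each read, was 60 in 13.0% of the 35767 F3-600 reads left in members and below 30 in 44.7%. In the other eligible bins, 58.3% of the F3-600 reads had 60 and 11.2% were below 30. In bins low in both lines the F3-600 reads were alike or lower, with 8.11% at 60 and 51.9% below 30, so the trait was not particular to the members. The other libraries were also lower in the members than elsewhere, but by less. In B73, 50.4% of the reads in members and 62.6% of those in the other eligible bins had 60, and in F3-152 43.8% and 59.6%. The mirror class gave the reverse between the F3 lines, with 14.04% of F3-152 reads at 60 and 36.9% of F3-600 reads.

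The length over which a read aligned gave a further measure. A read of 101 bp covers more than 101 bp of the reference only where the aligner opened a gap in it, that is, where bases of the reference are missing from the read. Of the F3-600 reads left in members, 4.04% were such long alignments, against 2.68% in the other eligible bins and 3.55% in bins low in both lines. F3-152 went the other way, with 1.30% in members against 2.32% elsewhere. B73, aligned to its own reference, had 0.0830% in members and 0.284% elsewhere. In bins low in F3-152 alone it was F3-152 that had more, 3.57%, and F3-600 1.34%.

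The same measure was taken over reads outside the members, in the other eligible bins of each 1-Mb window with at least 20 eligible bins. These bins were at 0.5 or more in F3-152 but only at 0.25 or more in F3-600, so the choice of bins was not the same for the F3 lines. In the 72 windows where members were 80% or more of the depleted bins, the median share of long alignments was 3.84% in F3-600 (quartiles 3.01% to 4.92%) and 1.94% in F3-152 (1.54% to 2.52%). The quartile ranges of the 2 lines did not overlap there. In the 585 windows where members were below 10%, the medians were 3.99% in F3-600 (3.06% to 5.08%) and 3.57% in F3-152 (2.74% to 4.59%), and the ranges overlapped. From 10% to 40% they were 4.57% and 3.96%, and from 40% to 80% 4.47% and 3.24%. In the 460 windows with fewer than 3 depleted bins of any kind they were 1.10% and 0.995%. Among the 4 classes of share, the median of F3-600 was lowest at 80% or more, yet above the 1.10% of windows with few depleted bins. The wider difference between the F3 lines at 80% or more went with the lowest median of F3-152 among these classes. Grouped by number of members instead, the medians of F3-600 were 2.51% without members, 3.74% with 1 to 4, 3.86% with 5 to 9 and 4.34% with 10 or more. Those of F3-152 were 2.37%, 3.39%, 3.11% and 2.66%. The medians of B73 were 0.0775% at 80% or more, 0.109% below 10% and 0.120% in the windows with few depleted bins. The part of the unequal choice of bins was not tested. Neighbouring windows are not independent, and no test was made.

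**Figure D4:**
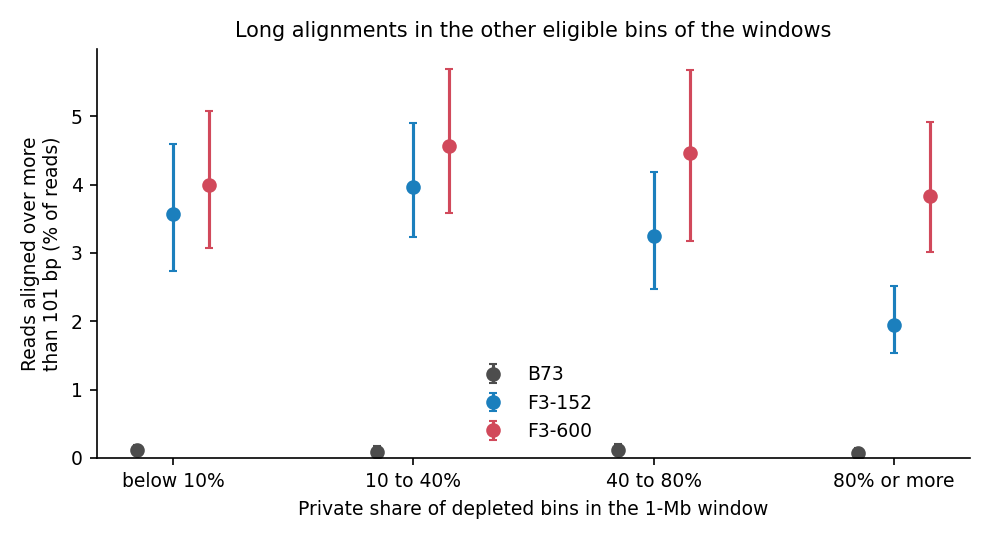
Share of reads aligned over more than 101 bp (in % of reads in eligible bins that were not members), by library, in 1-Mb windows grouped by the share of depleted bins that were private to F3-600. Points are medians over windows and bars run from the lower to the upper quartile. At 80% or more the medians are 3.84% in F3-600 and 1.94% in F3-152, each the lowest of its line among the 4 classes.

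Relative to the centromeres, members showed no common place. A centromere was located on 7 chromosomes as the B73 domain of at least 10 bins at 10 times the median or more, and could not be placed this way on chromosomes 1, 6 and 7. Within 5 Mb of these domains lay 187 of 2628 members, or 7.12%, and 7.03% of the eligible bins. The median distance was 43.9 Mb for members and 47.4 Mb for eligible bins. From 5 to 10 Mb away 1.51% of eligible bins were members, and from 10 to 20 Mb 3.28%, against 2.80% over the 7 chromosomes.

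Single chromosomes departed from this in both directions. Within 5 Mb of the centromere, 8.88% of the eligible bins of chromosome 9 and 6.94% of those of chromosome 5 were members, and 0% on chromosomes 3 and 10. The arms were unequal too. Chromosome 9 had 289 members before the centromere and 34 after it, or 8.41% and 0.622% of the eligible bins, and chromosome 2 had 411 and 165. On chromosome 5 the larger share, 7.85%, lay after the centromere.

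Inside the 7 B73 centromere domains, 31 of 783 eligible bins were members (3.96%), where B73 levels include CENH3 signal. They lay on chromosomes 4 (15), 5 (14) and 2 (2), and none on chromosomes 3, 8, 9 and 10. On chromosomes 8 and 9 no bin enriched in B73 was enriched in F3-600 either, but all of the 122 and 159 eligible bins stayed at 0.25 or more. A B73 centromere without enrichment in F3-600 therefore did not have to hold members. On chromosome 2, likewise with 0 of 93 enriched bins kept, the pair of members had 10 and 14 reads in F3-600, 93 and 255 in B73, and 47 and 68 in F3-152. In the other 86 eligible bins of this domain the medians were 14.5 in B73, 1.27 in F3-152 and 1.42 in F3-600. By the same rule F3-152 also had no located domain on chromosomes 2 and 8. On chromosome 9 it had a domain with 103 enriched bins.

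The members of chromosome 4 lay in the middle of a centromere that was otherwise enriched in F3-600. They spanned 290 kb, from 109470001 to 109760000, within the B73 domain from 109050001 to 110230000. Of the 29 bins, 5 had no read in any library, 23 were eligible and 15 were members. The 15 held 8879 reads in B73, 8775 in F3-152 and 95 in F3-600. Their levels ranged from 5.06 to 37.1 in B73 with a median of 15.4, from 1 to 14.4 in F3-152 with a median of 5.66, and from 0 to 0.23 in F3-600 with a median of 0.09. F3-600 lay below both other lines in every one of these bins, which the rule requires.

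The 8 other eligible bins of the span were low in F3-600 as well, between 0.25 and 1.59, and none of its 29 bins reached 10, whereas 18 did in B73 and 5 in F3-152. The bin just before the span was at 27.7 in B73, 37.7 in F3-152 and 27.6 in F3-600, and the bin just after at 24.3, 20.8 and 26.4. The signal of F3-600 therefore fell from the level of the other lines to below its typical bin at both edges. F3-152 was lower than B73 in the members but kept signal. Over the whole domain, 35 of the 62 bins enriched in B73 were enriched in F3-600. The 15 members together kept 51 fragments of F3-600 (interval 38.0 to 67.1), and a single typical bin held 34.

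On chromosome 5 the members lay in several small groups within a centromere that also kept much of its signal, with 63 of 123 B73-enriched bins enriched in F3-600. The group with the highest B73 levels was spread from 105530001 to 105700000. Its bin from 105550001 to 105560000 held 1484 reads in B73, 2342 in F3-152 and 1 in F3-600, the highest B73 count of all members. The bins before it, from 105540001 and from 105530001, held 2 and 4 reads in F3-600 beside 1405 and 1221 in B73. The 9 other eligible bins of this span were at 0.75 to 27.6 in F3-600, so low and enriched bins alternated there. The last part of the B73 domain, from 106260001 to 106560000, held no enriched bin of F3-600. It lay beyond the F3-600 domain, which ended at 106040000. Levels in this part ran from 0 to 2.97 in F3-600, from 3.59 to 29.2 in B73 and from 1.67 to 22.4 in F3-152. Only its bins from 106260001, 106430001 and 106500001 were members.

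A second group of 8 members lay just before the B73 domain, from 104510001 to 104630000, inside the F3-600 domain that started at 104410001. Its median level was 2.97 in B73, 1.37 in F3-152 and 0.13 in F3-600, with 68 reads left in F3-600. The bins on either side were at 3.75 and 3.41 in F3-600. Of the 7 CENH3 domains of F3-600 with at least 10 enriched bins, those on chromosomes 4 and 5 held 15 and 19 members. The other 5, on chromosomes 3, 6, 9 and 10, held 0.

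**Figure D5:**
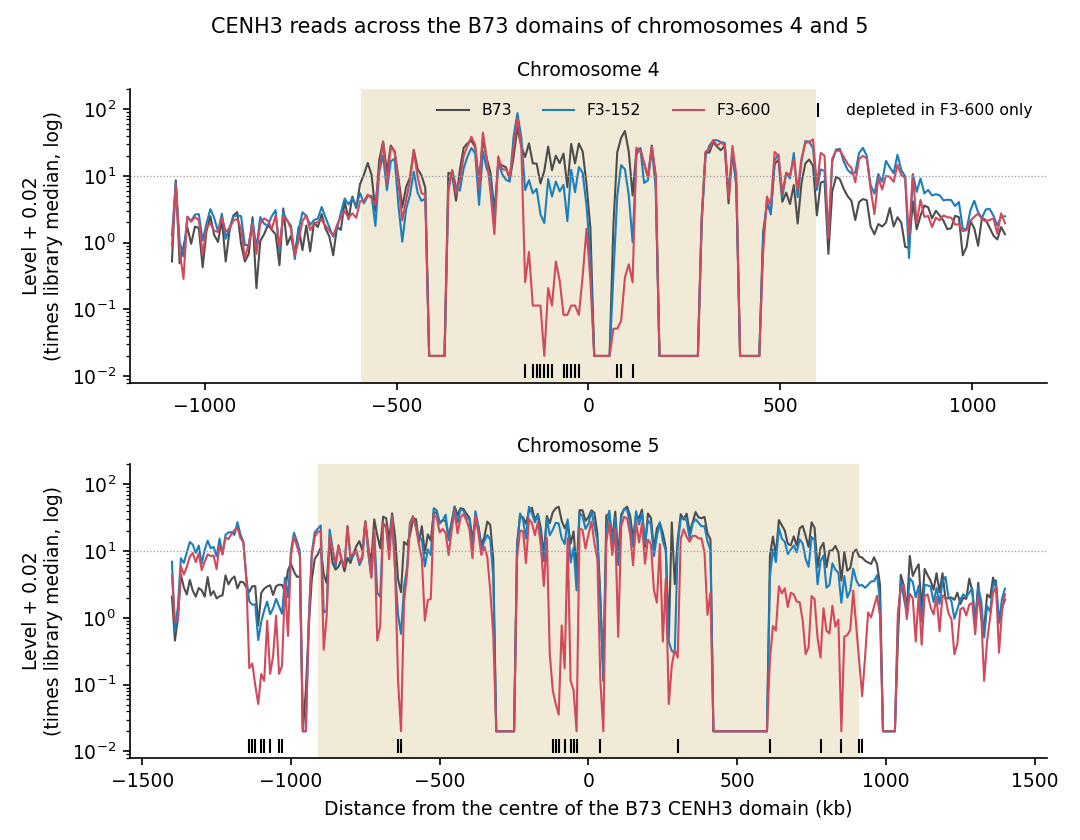
Level of CENH3 reads per 10-kb bin (times the library median, plus 0.02, log scale) in B73, F3-152 and F3-600 against the distance from the centre of the B73 domain (shaded, in kb) on chromosomes 4 and 5. Black ticks mark bins depleted in F3-600 only, and the dotted line is 10 times the median. On chromosome 4 the 15 marked bins span 290 kb with medians of 15.4 in B73 and 0.09 in F3-600.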

How the data were processed

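The authors deposited 1 row per aligned read with its position, strand and mapping quality, a score that ran from 20 to 60 and was not normalized. Their methods give BWA, B73 RefGen_v4 and unique placement for B73. The notes for the F3 lines name the same build, CASAVA and BWA. Removal of duplicates is not given in the sources used here, and duplicates were kept.

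Bins, scaling and limits were as in the report. The numbers for a random scatter came from formulas over the eligible bins. CENH3 domains were bins at 10 times the median or more, merged up to 500 kb apart, and the domain with the most reads was the centromere. Intervals are exact Poisson intervals at 95% over fragments, that is, distinct read names. Where no read was found, the upper limit was set at 3 reads, which is narrower than the 3.69 fragments of the exact interval. Fragments are PCR products without molecular identifiers, so intervals are too narrow.

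Regions named were the 10 longest runs, the longest run of each chromosome with at least 3 bins, and members inside CENH3 domains; the joined stretches and windows were chosen after their values were seen. Members and rules were chosen with earlier results of these data known. Alternatives were other bin sizes and limits, mapping quality filters, collapsed duplicates, fragments in place of reads, scaling to the mean and thinning to the fragment number of B73, which does not make the read numbers equal. The counting was tested on simulated data. Gene names and sequences were not used here, since the annotation at hand is of another build. Tables were computed in Python 3.11.15 with SciPy 1.17.1, NumPy 2.4.6 and pandas 2.3.3, and plots were drawn with Matplotlib 3.10.9.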

Additional observations from a re-analysis of the deposited data

How the results depend on the processing

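Of 70 alternative values for 7 results, 39 stayed within 1.5 times the reported count or length, or within the binomial or counting interval of the reported value, and 31 did not. The alternatives for the reads left in the members and for the dense windows were chosen after seeing the data. The number of bins was 10829 with bins of 5 kb, 1821 with 20 kb, 518 with 50 kb, 1429 with F3-600 below 0.1, 10942 with F3-600 below 0.5 and 2252 with B73 and F3-152 at 0.75 or more, since these settings change the size or the limits by construction. Under the read filters, the other scaling and thinning it was 3859 to 4646. Not the same bins were chosen each time: a mapping quality of 60 gave 4163, of which 2092 were among the 4155 reported, and collapsed duplicates gave 4243, of which 4063 were. Of the 29 members in the centromeres of chromosomes 4 and 5, 25 were kept at a mapping quality of 60 and 29 with collapsed duplicates.

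The share with a neighbour was 46.5% with bins of 50 kb, 31.8% below 0.1, 48.0% below 0.5, 49.8% at 0.75 or more, 61.0% at a mapping quality of at least 30, 56.4% scaled to the mean, 48.0% after thinning and 80.6% with neighbours up to 50 kb apart, and in each above the random scatter run for it. The share on the fullest chromosome was 21.0% with bins of 50 kb, 25.1% below 0.1 and 24.0% at 0.75 or more, on chromosome 5, and 18.0% below 0.5, where chromosome 1 had the most. The share within 5 Mb of a centromere was 6.06% with bins of 20 kb (6.80% of eligible bins), 5.15% with 50 kb (6.47%) and 5.53% below 0.5 (7.03%). At 0.75 or more it was 9.68% (8.15% of eligible bins), and at a mapping quality of 60 it was 10.6% (7.37%). It was 3.69% within 2 Mb (3.36% of eligible bins) and 10.4% within 10 Mb (13.2%). The longest run became 1280 kb when joined across 50 kb. F3-600 reads in members were 13.5% of the number in typical bins, 10.7% at a mapping quality of at least 30, 7.47% at 60, 13.7% with collapsed duplicates and 14.01% over fragments. The cause of these shifts was not tested.

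Counting error bears on single bins. With the fragments of each library split by name in 2 parts, 4267 bins were chosen in the first part. In the other part, F3-600 was at 20.6% of typical bins there, with 64.6% of the bins below 0.25 and 92.5% below 0.5. By the whole rule, 2171 of them (50.9%) were members in the other part. The medians per non-empty bin in the first part were only 32 reads in F3-600 and 16 in B73. Bins near the limit were not looked at apart. A single bin should therefore be read with caution, though the split does not measure reliability at full depth. No paired analysis was possible because each line has 1 library.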
